A study of Rattus norvegicus with 6 samples.

Results

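The genes described here are 10 members of the transforming growth factor beta (TGF-beta) superfamily pathway, 5 ligand genes (Tgfb1, Tgfb2, Tgfb3, Inhba and Bmp4), 2 receptor genes (Tgfbr1 and Tgfbr2), the intracellular inhibitor Smad7 and 2 secreted antagonists (Fst and Grem1). They were chosen by gene name, and each of the 10 names occurs once among the 18077 rows of the count tables. RNA sequencing gave 6 libraries of cells labelled as neonatal rat cardiomyocytes, the contracting cells of the heart, from pups of 1 to 3 days. No label says whether the libraries come from separate cultures. For all 6, the cells were exposed to palmitic acid, a saturated fatty acid, at 500 µM for 24 h. They also received an adenoviral vector, and RNA was taken after 48 h. The vector was Ad-GFP, with green fluorescent protein, in 3 libraries and Ad-RNF128, with a ubiquitin ligase, in the other 3. No group without palmitic acid or without virus is among them.

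TGF-beta ligands are secreted in a latent form, held in the matrix by latent TGF-beta binding proteins, and once freed they bind a complex of type II and type I receptors. The receptors phosphorylate SMAD2 and SMAD3, which enter the nucleus with SMAD4, while BMP ligands act in the same way through SMAD1, SMAD5 and SMAD9. Activins, of which activin A is a dimer of the Inhba product, use the SMAD2 and SMAD3 branch. Follistatin traps activins, gremlin traps BMPs, and SMAD7 blocks the type I receptors. In the heart this pathway is best known for its part in fibroblast activation and matrix deposition.

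The labels were checked before the members were read. Reads on rat Rnf128 numbered 0, 2 and 1 under the Ad-GFP label and 1, 3 and 1 under the Ad-RNF128 label, in replicate order, so this gene does not bear out the second label. Rnf157, another RING-type ubiquitin ligase gene, was at 22.3 to 40.4 CPM (counts scaled to 1000000 per library) under the first label and at 1923 to 2553 CPM under the second. All directions below are therefore for the libraries labelled Ad-RNF128. Totals ran from 16352844 to 21708973 counts. Ad-GFP replicate 1 stood apart, with Spearman correlations of at most 0.818 to any other library, where each of the other 5 reached at least 0.988 with another. It is shown separately, and the comparison is made against Ad-GFP replicates 2 and 3 first and against all 3 afterwards. The 19 cardiomyocyte markers found summed to 757.0 and 751.2 CPM in Ad-GFP replicates 2 and 3, 233.5 to 342.8 CPM in the libraries labelled Ad-RNF128 and 450.7 CPM in Ad-GFP replicate 1. Against replicates 2 and 3, 2 of 17 tested rose (Gata4 and Hand2), 3 fell (Tnnt2, Ttn and Tnnc1) and 12 were not called. Calls are at an edgeR adjusted p under 0.05. Over all 13173 genes tested, 28.9% passed as higher and 28% as lower. Myh6 and Myh7, the cardiac myosin heavy chains, were a small part of the cardiomyocyte sum. They were at 10.2 to 16.02 CPM in 5 libraries and at 0.104 and 0.0519 CPM in Ad-RNF128 replicate 3. The 13 skeletal muscle markers found summed to 206.9 and 223.0 CPM in Ad-GFP replicates 2 and 3. Their sum was 85.8 to 94.9 CPM in the libraries labelled Ad-RNF128 and 148.4 CPM in Ad-GFP replicate 1. Of 11 skeletal muscle markers tested 1 rose and 8 fell, with a median log2 change of -1.51. The summed level of the 12 fibroblast markers was 41459 and 43108 CPM in Ad-GFP replicates 2 and 3, 13456 to 14546 CPM in the libraries labelled Ad-RNF128 and 4166 CPM in Ad-GFP replicate 1. Of 10 tested, 6 fell and none rose, and with library totals alone 6 fell and 1 rose. Most of this sum is collagen, but Vim, Thy1 and Ddr2 were also expressed. Vim and Thy1 were not called, with log2 changes of -0.13 and 0.17 (edgeR adjusted p = 0.106 and 0.0595). Ddr2 fell, at 329.2 and 308.0 CPM in Ad-GFP replicates 2 and 3 and 240.4 to 265.9 CPM in the labelled libraries. It was at 14.7 CPM in Ad-GFP replicate 1. Tcf21 and Fap, markers of cardiac and activated fibroblasts, were at or below 0.0554 CPM in every library. In bulk RNA, fewer cells of a type and less RNA per cell cannot be told apart.

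Upstream sequence is shown for the member that rose most and the member that fell most, Inhba and Tgfb3. The sequences are the 250 bases before the RefSeq gene start in the rat build GRCr8, which is not the build of the counts. Inhba lies on the minus strand at chr17:53804509-53804758 and Tgfb3 on the minus strand at chr6:111456947-111457196. Capitals mark matches to the motifs searched.
Inhba: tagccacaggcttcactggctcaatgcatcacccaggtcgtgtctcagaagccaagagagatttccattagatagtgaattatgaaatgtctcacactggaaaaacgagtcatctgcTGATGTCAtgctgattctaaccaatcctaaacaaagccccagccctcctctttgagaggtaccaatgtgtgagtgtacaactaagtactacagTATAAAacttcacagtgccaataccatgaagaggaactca
Tgfb3: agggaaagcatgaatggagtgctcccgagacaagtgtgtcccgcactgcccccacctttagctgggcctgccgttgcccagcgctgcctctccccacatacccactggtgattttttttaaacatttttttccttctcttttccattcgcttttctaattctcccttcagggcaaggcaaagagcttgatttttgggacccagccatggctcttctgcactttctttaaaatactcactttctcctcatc
The motifs, searched on both strands in 9 members with an entry, were the SMAD palindrome GTCTAGAC, the AP-1 site TGANTCA, an NF-kB type site, the cyclic AMP response type site TGANGTCA and the TATA box TATAAA. The last 2 were added after the sequences had been seen. Inhba held TGATGTCA starting 133 bases and TATAAA starting 40 bases before the start, and no other member held a match in its window. Over 33469 RefSeq promoters, the shares with a match were 0.173%, 6.34%, 1.3%, 8.88% and 12.9%, in the order listed.

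Against Ad-GFP replicates 2 and 3, the libraries labelled Ad-RNF128 had higher Inhba, Tgfb1 and Smad7 and lower Tgfb3, Tgfb2, Tgfbr2, Fst, Bmp4 and Tgfbr1. Of the 10 members, 3 rose and 6 fell at an edgeR adjusted p under 0.05, where 56.9% of the 13173 genes tested passed, 28.9% higher and 28% lower. The median log2 change was -0.30 over the members and 0.01 over all genes tested. For 8 members the groups did not overlap in CPM, beside 73.6% of the 12036 genes with a mean of at least 1 CPM. Log2 changes are on edgeR's TMM scale, and the value after ± is their SE. Scaling by library totals alone raised the median log2 change of all genes to 0.17, with 5367 genes higher and 2409 lower in place of 3812 and 3689. On that scale 3 members rose and 5 fell.

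**Figure D1:**
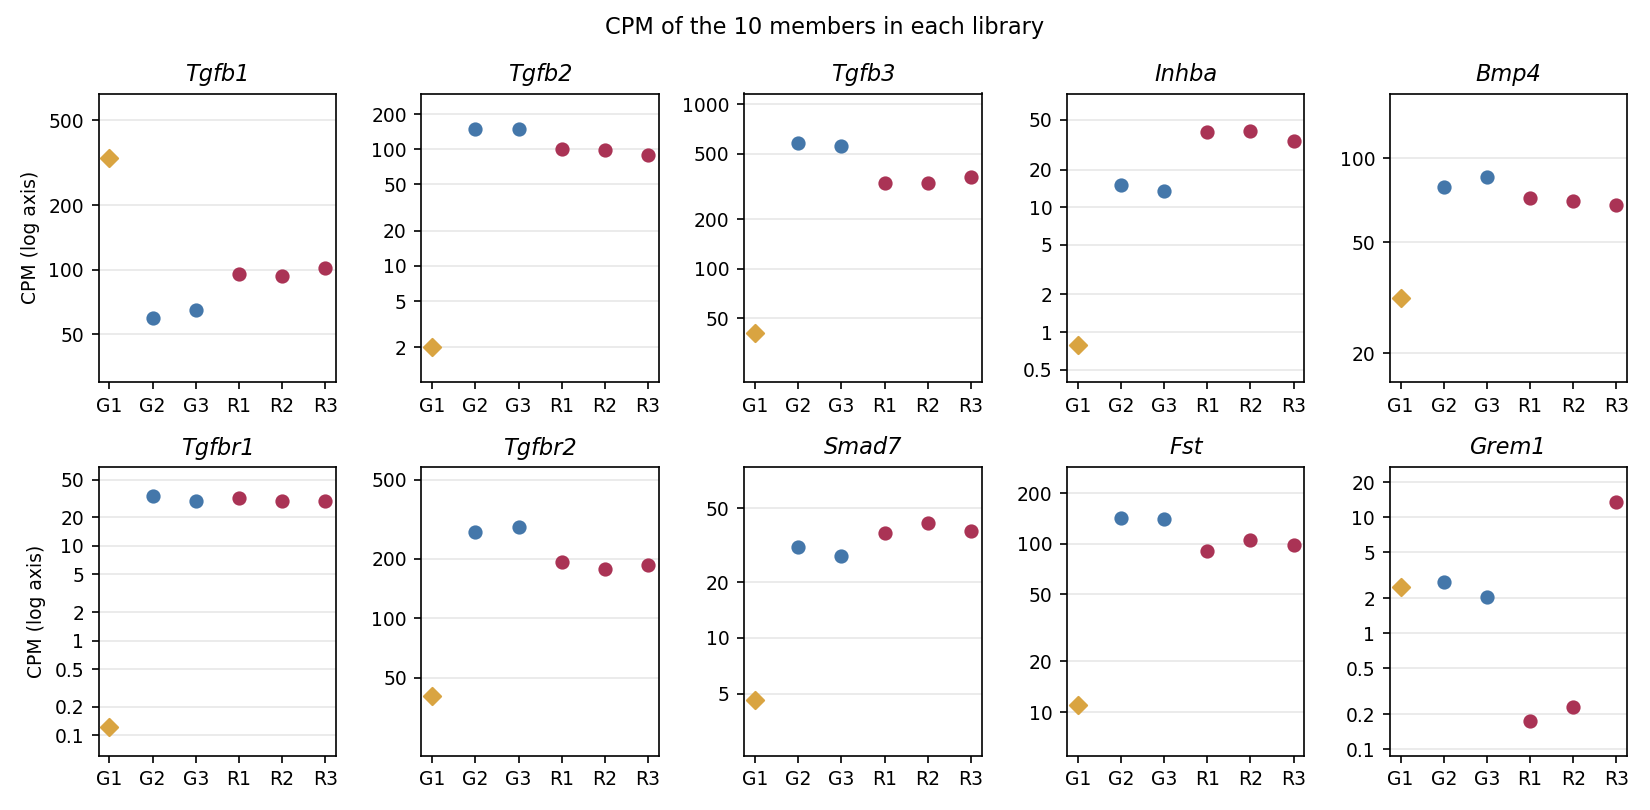
CPM of each member on log axes in Ad-GFP replicates 1 to 3 (G1 as a yellow diamond, G2 and G3 in blue) and in the libraries labelled Ad-RNF128 (R1 to R3, red), one point per library. Ad-GFP replicate 1 lies below all other libraries for 8 members and above them for Tgfb1, and Grem1 spans 0.175 to 13.6 CPM within the red points.

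The 3 TGF-beta ligand genes moved in opposite directions. Tgfb1 (ENSRNOG00000020652), the isoform most often linked to fibrosis, was at 59.5 and 64.9 CPM in Ad-GFP replicates 2 and 3 and at 95.2, 93.2 and 101.3 CPM in the libraries labelled Ad-RNF128. All 3 of the latter lay above both controls, a log2 change of 0.48 ± 0.08 (edgeR adjusted p = 7.95e-05). Tgfb2 (ENSRNOG00000002418), which is needed for heart valve and septum formation, was at 150.1 and 148.7 CPM against 100.6, 98.9 and 88.8 CPM. The groups were again apart, now with the labelled libraries lower (-0.79 ± 0.07, edgeR adjusted p = 1.9e-07). Tgfb3 (ENSRNOG00000009867), the third isoform, was at 579.3 and 554.6 CPM against 332.6, 330.0 and 359.2 CPM. It had the smallest p of the members, with a log2 change of -0.89 ± 0.06 (edgeR adjusted p = 2.42e-08).

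Together the 3 genes took fewer reads, and the part of Tgfb1 grew. Their sum was 788.9 and 768.2 CPM in Ad-GFP replicates 2 and 3 and 528.4, 522.1 and 549.2 CPM in the libraries labelled Ad-RNF128. Tgfb1 held 7.55% and 8.45% of these reads in the 2 controls and 18.0%, 17.9% and 18.4% in the labelled libraries. Tgfb3 held 73.4% and 72.2% against 62.9%, 63.2% and 65.4%, while the share of Tgfb2 was 19.0% and 19.4% against 19.0%, 19.0% and 16.2%. Ad-GFP replicate 1 was unlike either group, with 88.6% of its 376.5 CPM on Tgfb1, 10.9% on Tgfb3 and 0.536% on Tgfb2. The shares count reads without regard to transcript length, so they compare libraries and not the abundance of one isoform with another.

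**Figure D2:**
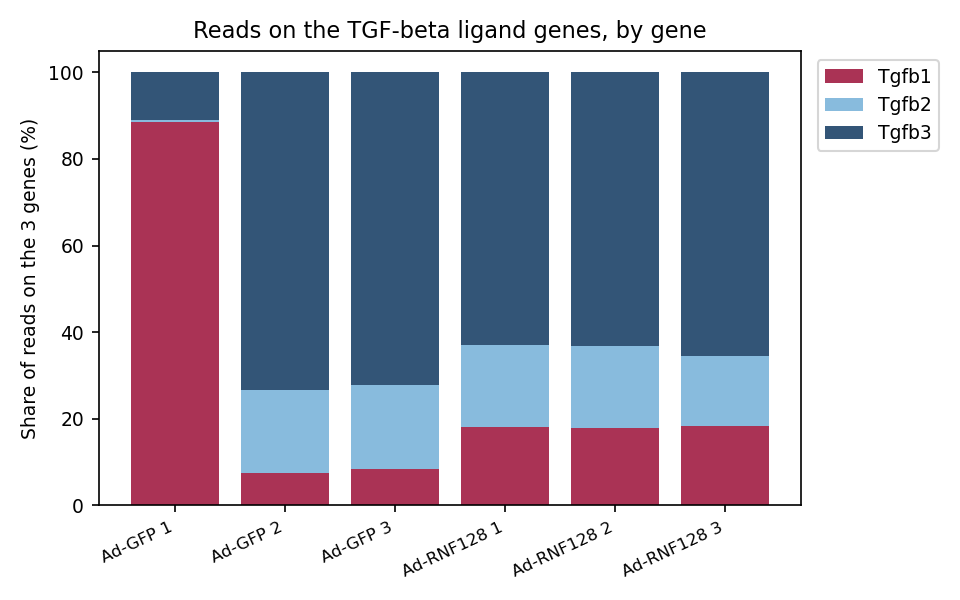
Share of reads on Tgfb1, Tgfb2 and Tgfb3 in each library, in percent of the reads on the 3 genes, as stacked bars. Tgfb1 takes 7.55% and 8.45% in Ad-GFP replicates 2 and 3, 17.9% to 18.4% in the libraries labelled Ad-RNF128 and 88.6% in Ad-GFP replicate 1.

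Of the other ligands, the activin subunit gene rose and the BMP gene fell slightly. Inhba (ENSRNOG00000014320), which encodes the inhibin beta A subunit that forms activin A, was at 15.1 and 13.4 CPM in Ad-GFP replicates 2 and 3 and at 40.1, 40.6 and 33.8 CPM in the libraries labelled Ad-RNF128. The lowest labelled library was above both controls, and the log2 change of 1.27 ± 0.10 was the largest of the called members (edgeR adjusted p = 6.02e-08). Its upstream sequence is the one shown above with the TGATGTCA and TATAAA matches, to motifs added after the sequences had been seen. A link between these matches and the change was not tested. Bmp4 (ENSRNOG00000009694), a BMP ligand with a role in heart development, was at 78.7 and 85.5 CPM against 72.2, 70.2 and 67.8 CPM. The groups did not overlap, but the difference was small (-0.39 ± 0.07, edgeR adjusted p = 0.000316).

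Both receptor genes passed the test as lower, and for 1 of them the groups overlapped. Tgfbr2 (ENSRNOG00000013265), the type II receptor that binds the ligand first, was at 271.1 and 290.6 CPM in Ad-GFP replicates 2 and 3 and at 192.0, 177.1 and 186.4 CPM in the libraries labelled Ad-RNF128. The groups were apart, with a log2 change of -0.76 ± 0.07 (edgeR adjusted p = 2.78e-07). Tgfbr1 (ENSRNOG00000007036), the type I kinase that phosphorylates SMAD2 and SMAD3, was at 33.96 and 29.95 CPM against 32.1, 30.1 and 29.7 CPM. These values overlap, and the log2 change of -0.21 ± 0.08 (edgeR adjusted p = 0.0317) was -0.06 with library totals alone, where the call ended (edgeR adjusted p = 0.551). The call also ended with DESeq2 (adjusted p = 0.0788), without Ad-GFP replicate 2 (edgeR adjusted p = 0.205) and without any 1 of the 3 labelled libraries (edgeR adjusted p of 0.0524 to 0.122).

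The intracellular inhibitor was slightly higher. Smad7 (ENSRNOG00000018359), itself induced by TGF-beta as a feedback inhibitor, was at 30.9 and 27.8 CPM in Ad-GFP replicates 2 and 3 and at 36.7, 41.6 and 37.9 CPM in the libraries labelled Ad-RNF128. All labelled libraries were above both controls, with a log2 change of 0.25 ± 0.08 (edgeR adjusted p = 0.0173). The edgeR adjusted p was 0.115 without Ad-GFP replicate 3 and 0.07 without Ad-RNF128 replicate 2, so this call rests on single libraries.

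Of the secreted antagonists, Fst (ENSRNOG00000011631), which encodes follistatin, fell. It was at 143.0 and 141.1 CPM in Ad-GFP replicates 2 and 3 and at 90.3, 105.6 and 98.9 CPM in the libraries labelled Ad-RNF128. The groups were apart, with a log2 change of -0.68 ± 0.07 (edgeR adjusted p = 1.63e-06). The genes of activin A and of its trap thus moved in opposite directions. Reads on Fst per read on Inhba were 9.46 and 10.6 in the 2 controls and 2.25, 2.60 and 2.92 in the labelled libraries, a ratio of reads and not of molecules. In Ad-GFP replicate 1 it was 13.8.

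**Figure D3:**
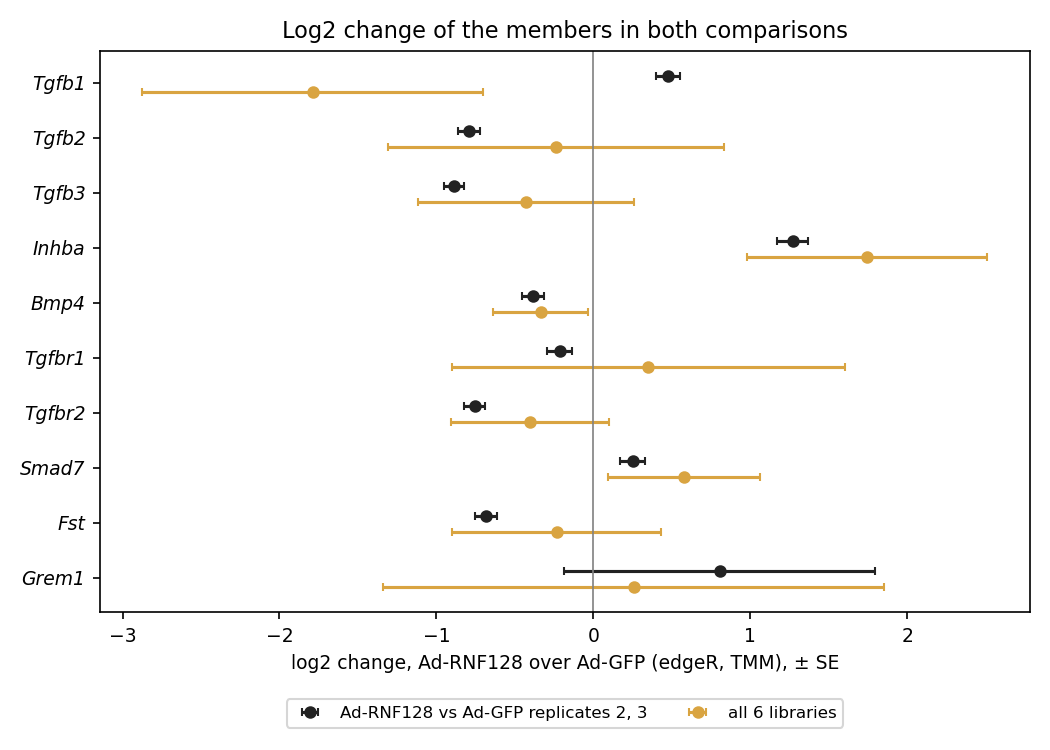
Log2 change of each member, libraries labelled Ad-RNF128 over Ad-GFP, with bars of 1 SE from edgeR. Black points use Ad-GFP replicates 2 and 3 and yellow points all 6 libraries, where the bars are wider and Tgfb1 and Tgfbr1 lie on the other side of 0.

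Grem1 (ENSRNOG00000026053), which encodes the BMP antagonist gremlin 1, split the libraries labelled Ad-RNF128. Its reads numbered 41, 50 and 44 under the Ad-GFP label, and 3, 5 and 261 under the Ad-RNF128 label, in replicate order. In CPM, with exact 95% binomial intervals for counting error only, this is 2.77 (2.06 to 3.65) and 2.06 (1.50 to 2.77) in Ad-GFP replicates 2 and 3. The labelled libraries were at 0.175 (0.0362 to 0.513), 0.230 (0.0748 to 0.537) and 13.6 (11.96 to 15.3) CPM, 2 of them below and 1 above every control. The log2 change was 0.81 ± 0.99 and was not called (edgeR adjusted p = 0.509). Without Ad-RNF128 replicate 3 it was -3.64 (edgeR adjusted p = 8.66e-06), so this 1 library decides both the direction and the call.

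Grem1 did not stand alone in that library. Among 12213 genes with a mean of at least 1 CPM over the labelled libraries, 12 were at least 2-fold higher in Ad-RNF128 replicate 3 than in each of the other 2, after adding 0.1 CPM. In Ad-RNF128 replicate 1 there was 1 such gene and in replicate 2 there were 6. The filter takes the mean over the same labelled libraries, so Grem1 passed it only through replicate 3. Grem1 had the highest ratio of the 12, followed by Lcn2, an iron-carrier binding protein, C3, the central complement component, Mgp, a calcification inhibitor of the matrix, and Pdgfra, a receptor of mesenchymal cells. These names were chosen after their values were seen. For Lcn2 the reads were 36, 31 and 26 with Ad-GFP, then 3, 5 and 131 in the labelled libraries, in the same order. C3 had 83, 69 and 71 against 13, 15 and 324 counts. For 6 of the 12, including Grem1, all 3 Ad-GFP libraries lay above Ad-RNF128 replicates 1 and 2 and below replicate 3.

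The same library also lacked reads that the others shared. Over 18077 rows, 6 genes were at least 10-fold lower in Ad-RNF128 replicate 3 than in every other library after 0.1 CPM was added to each. All 6 are on the cardiomyocyte marker list. The count was made for this library only. Ad-GFP replicate 1 met the same rule for other genes, such as Tgfbr1 (0.122 against at least 29.7 CPM) and Tgfb2 (2.02 against at least 88.8 CPM). Myh6 had 262, 242, 237, 244 and 235 counts in the other 5 libraries and 2 in Ad-RNF128 replicate 3. Actc1, cardiac actin, had 247, 251, 210, 299 and 241 against 5. These counts varied little among the 5 libraries. Of the fibroblast marker list, only Pdgfra was among the 12 genes higher in Ad-RNF128 replicate 3. Mgp, Fbln2 and Thbs2, also among the 12, are not on that list. Col1a1, which is on it, was at 3970 CPM in Ad-RNF128 replicate 3 and at 4016 and 3659 CPM in replicates 1 and 2. The part of these differences in the Grem1 values was not tested, nor was whether all reads on these genes and on Grem1 come from the RNA of the library they are listed in.

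**Figure D4:**
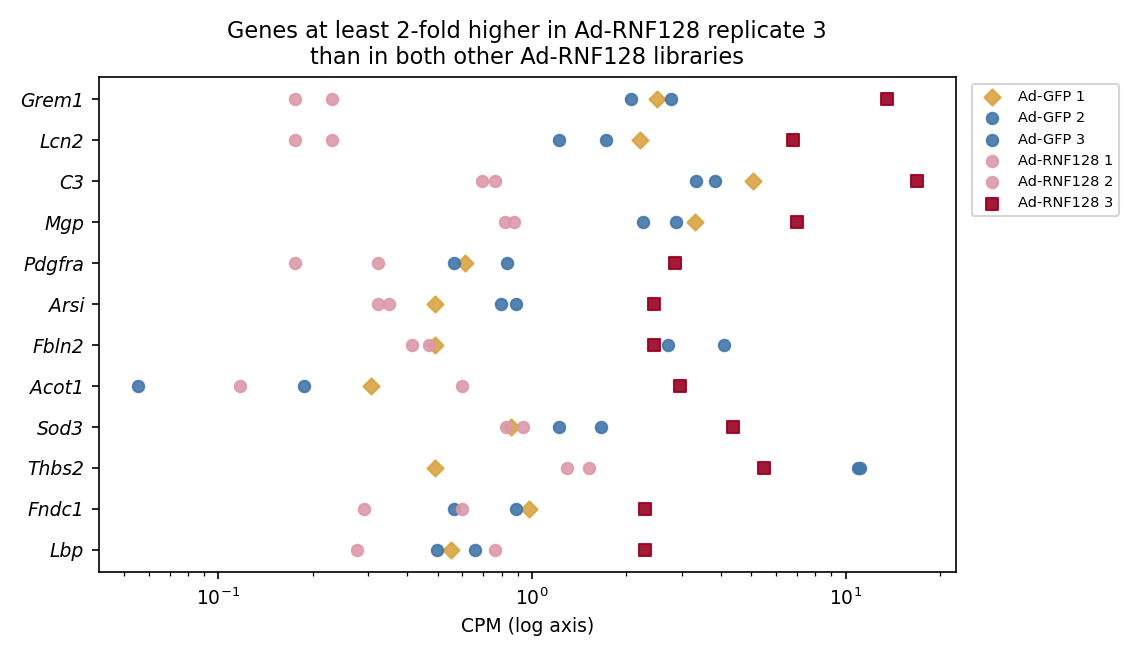
CPM on a log axis of the 12 genes that were at least 2-fold higher in Ad-RNF128 replicate 3 (dark square) than in both other libraries labelled Ad-RNF128 (pink), with the Ad-GFP libraries in blue and yellow. Grem1 heads the list, with 0.175 and 0.230 CPM in the pink points and 13.6 CPM in the square.

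Ad-GFP replicate 1 stood apart in the members, as it did over genes as a whole. It was below all other libraries for 8 members, where this held for 66.7% of genes with a mean of at least 1 CPM, above all for Tgfb1 (25.3% of those genes), and among them for Grem1. Tgfb1 was at 333.5 CPM, and its ratio to the mean of replicates 2 and 3 was 5.36. Tgfb2 was at 2.02 CPM, Tgfb3 at 41.0, Inhba at 0.795, Bmp4 at 31.4, Tgfbr2 at 40.4, Smad7 at 4.65 and Fst at 11.01 CPM. Tgfbr1 had 2 counts, or 0.122 CPM, where replicates 2 and 3 had 613 and 639 counts.

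With all 3 Ad-GFP libraries no member passed the test, and 0% of 12863 genes did (edgeR, 0 genes), while 5.77% had an unadjusted p under 0.05, 3.36% higher and 2.41% lower. With DESeq2, 244 genes passed as higher and 142 as lower, with limma-voom 14 passed, and no member was among them, but DESeq2 gave no p for Tgfb1 and Grem1. No member had an unadjusted p under 0.05 with edgeR on the TMM scale. Inhba came nearest, with a log2 change of 1.75 ± 0.77 (edgeR unadjusted p = 0.0628, adjusted p = 0.681). Its unadjusted p was 0.0439 in edgeR with median-of-ratios factors, 0.00751 with DESeq2 and 0.0377 with limma-voom, and the adjusted p were 0.541, 0.144 and 0.774. The log2 change of Tgfb1 was -1.79 ± 1.08, opposite to that against replicates 2 and 3, and its ratio of mean CPM was 0.633. That of Tgfbr1 was 0.35 ± 1.25, also turned. For Tgfb3, Tgfb2, Tgfbr2, Fst and Bmp4 the values were -0.43, -0.24, -0.40, -0.23 and -0.34, and for Smad7 0.58. In CPM, 2 members, Inhba and Smad7, had groups that did not overlap over all 6 libraries, beside 33.7% of genes with a mean of at least 1 CPM. TMM gave Ad-GFP replicate 1 a factor of 0.470 and the other libraries 1.08 to 1.22. The median log2 change of all genes in this comparison was -0.02, and it was 0.35 with library totals alone, so small values here depend on the scaling.

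The genes most like Tgfb3 in pattern over the 6 libraries were Srcap, a chromatin remodelling ATPase, Ints7, a subunit of the Integrator complex, and Nsun6, an RNA methyltransferase. Pearson's r of log2(CPM + 1) was 1.00 after rounding for each. The Ad-GFP libraries held Srcap at 8.38, 154.2 and 149.8 CPM, the labelled libraries at 82.9, 83.7 and 91.0 CPM. Of 10253 genes compared, 721 had an r of at least 0.99, and all of these points share the low library Ad-GFP replicate 1.

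Other genes of the pathway were read from lists of ligands, extracellular binders, receptors and SMADs, 83 genes in all, of which 58 were tested. Against Ad-GFP replicates 2 and 3, 14 rose, 27 fell and 17 were not called, with a median log2 change of -0.18 (18 higher and 23 lower with library totals alone, median -0.02). On the TMM scale 28.9% of all genes tested were called higher and 28% lower, the shares to set beside each list below. Genes given with a log2 change from each list below were picked as called, without overlap and with the largest changes. Their small p and separate groups follow from that choice. Among 20 tested antagonists and binders 5 rose and 11 fell, with a median of -0.47. Ltbp1, a latent TGF-beta binding protein, was at 63.1 and 61.0 CPM in Ad-GFP replicates 2 and 3. It was at 259.4, 273.5 and 255.2 CPM in the libraries labelled Ad-RNF128 (1.93 ± 0.07, edgeR adjusted p = 9.07e-12). Lrrc32, which holds latent TGF-beta at the cell surface, rose from 2.38 and 2.39 CPM to 8.66, 8.29 and 8.41 CPM (1.67 ± 0.16, edgeR adjusted p = 7.23e-07). Fstl1, a secreted follistatin-like glycoprotein, fell from 1493 and 1521 CPM to 750.8, 677.0 and 677.3 CPM (log2 change -1.26 ± 0.07, edgeR adjusted p = 6.68e-10). Fmod, fibromodulin, a collagen-binding proteoglycan that can bind TGF-beta, was at 12.9 and 21.4 CPM against 0.351, 0.369 and 0.883 CPM (-5.16 ± 0.30, edgeR adjusted p = 2.03e-09). In Ad-GFP replicate 1 these 4 genes were at 15.5, 5.44, 51.5 and 0.245 CPM, so Ltbp1 was low there and Lrrc32 lay between the groups.

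Among 11 other receptor genes tested 3 rose and 5 fell, with a median of 0.15 (5 and 5 with library totals alone). Bambi, a decoy receptor without a kinase domain, was at 3.55 and 4.22 CPM in Ad-GFP replicates 2 and 3. It was at 14.9, 14.7 and 12.6 CPM in the libraries labelled Ad-RNF128 (1.69 ± 0.15, edgeR adjusted p = 2.14e-07). Ad-GFP replicate 1 held it at 22.9 CPM, above every other library. Acvr1b, the type I activin receptor, rose by 0.60 ± 0.09. The BMP receptor genes Bmpr1a and Bmpr2 had log2 changes of -0.76 ± 0.07 and -0.51 ± 0.07, and both passed. Ad-GFP replicate 1 held these 3 at 15.6, 0.550 and 0.917 CPM.

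Among 19 SMAD and regulator genes tested 3 rose and 8 fell, with a median of -0.14 (0.02 with library totals alone, where 4 rose and 5 fell). The members of the BMP branch Smad1 and Smad5 had log2 changes of -0.52 ± 0.08 and -0.42 ± 0.07. Smad6, the inhibitor of BMP signalling, was at 23.5 and 27.3 CPM against 15.8, 12.9 and 15.3 CPM (-0.96 ± 0.11, edgeR adjusted p = 3.69e-06), opposite in direction to Smad7. The corepressor Tgif2 had a log2 change of -0.43 ± 0.13, a call that ended with library totals alone (edgeR adjusted p = 0.0895) and without Ad-GFP replicate 3 (edgeR adjusted p = 0.0598). Among 8 other ligands tested 3 rose and 3 fell, with a median of 0.01. Gdf1 rose by 0.70 ± 0.15 and Inhbe, an activin subunit, had a log2 change of -0.62 ± 0.15, a call that ended without Ad-GFP replicate 3 (edgeR adjusted p = 0.0598). Inha, the inhibin alpha subunit, at 0.40 ± 0.17 (edgeR adjusted p = 0.0495), and Bmp3, at -0.32 ± 0.13 (edgeR adjusted p = 0.0497), lay at the threshold, and both calls ended with DESeq2 (adjusted p of 0.117 and 0.114). Leaving out 1 library also ended the Inha call in 4 of 5 cases and the Bmp3 call in 5 of 5. Ad-GFP replicate 1 held Gdf1 at 51.6 CPM, above the 11.1 to 15.1 CPM of the labelled libraries, and Inha at 10.3 CPM, also above them. It held Smad1 at 8.07, Smad5 at 2.69, Tgif2 at 7.40, Inhbe at 5.87 and Bmp3 at 0.550 CPM, each below every other library, and Smad6 at 19.4 CPM, between the groups. With all 6 libraries, 7 of the 22 pathway and target genes given values here had the other sign, at -1.99 for Gdf1, -0.75 for Inha, 0.16 for Bmp3, -0.68 for Bambi, 0.04 for Bmpr2, 0.08 for Smad5 and -1.79 for Id1, and none was called by edgeR.

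**Figure D5:**
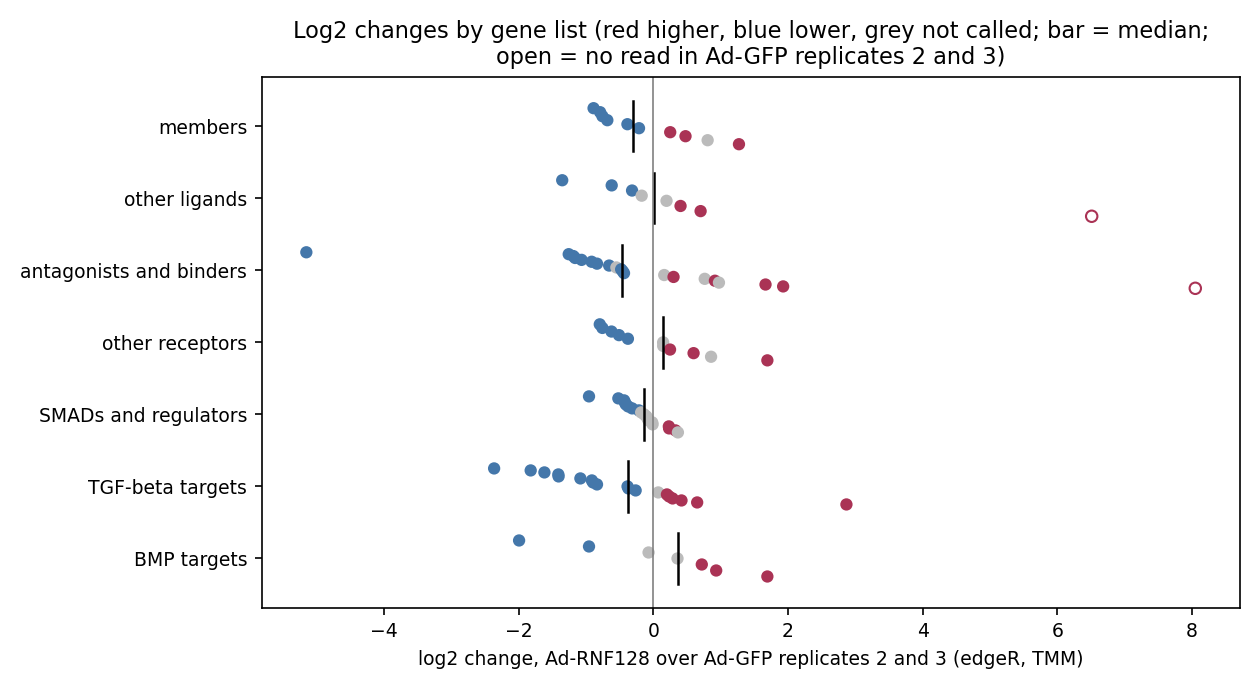
Log2 change, libraries labelled Ad-RNF128 over Ad-GFP replicates 2 and 3, of each tested gene in 7 lists, 1 point a gene, red for higher, blue for lower, grey for not called, with the list median as a bar. Open points are Inhbb and Chrdl2, which had no read in the 2 controls, so their fitted place on the axis is no measure of size, and the medians of their lists stay at 0.01 and -0.47 with both at their lower bounds.

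Genes that TGF-beta is known to induce did not move as one. Of 19 tested 6 rose and 12 fell, with a median log2 change of -0.38 (7 and 11 with library totals alone, median -0.23). Over all genes tested, 28.9% rose and 28% fell on the TMM scale. The fibrillar collagen genes Col1a1, Col1a2 and Col3a1 had log2 changes of -2.37 ± 0.07, -1.82 ± 0.07 and -1.62 ± 0.07, and all 3 are also on the fibroblast marker list, whose summed level is given above. Tnc, which encodes the matrix glycoprotein tenascin C, went the other way. It was at 6.59 and 7.22 CPM in Ad-GFP replicates 2 and 3 and at 61.2, 51.1 and 57.0 CPM in the libraries labelled Ad-RNF128 (2.87 ± 0.11, edgeR adjusted p = 1.73e-11), with 2.94 CPM in Ad-GFP replicate 1. The labelled libraries were thus above every Ad-GFP library for Tnc, while for Col1a1 Ad-GFP replicate 1 was at 1100 CPM, below the 3659 to 4016 CPM of the labelled libraries.

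BMP-induced genes were divided as well. Of 7 tested 3 rose and 2 fell, with a median of 0.36, where 28.9% of all genes tested rose and 28% fell. Id1, a direct BMP target that inhibits differentiation factors, was at 14.9 and 14.1 CPM in Ad-GFP replicates 2 and 3 and at 23.5, 30.6 and 25.3 CPM in the libraries labelled Ad-RNF128 (0.72 ± 0.11, edgeR adjusted p = 7.06e-05). Bambi rose and Smad6 fell, as given above. Atoh8, a helix-loop-helix factor, was at 27.1 and 31.8 CPM against 7.08, 8.25 and 9.35 CPM (-1.995 ± 0.12, edgeR adjusted p = 3.42e-09). Ad-GFP replicate 1 held Id1 at 94.1 and Atoh8 at 5.20 CPM, outside the range of the other libraries in both cases.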

How the data were processed

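Reads per gene were taken from 6 deposited count tables, 1 per library. The submitters' processing notes list HISAT2 without a version, HTSeq 0.13.5, and mRatBN7.2 as the build. Whether strand was used in counting is not given, so reads from antisense or overlapping genes may be mixed. The deposited column of Ad-GFP replicate 1 was handled as estimated counts, since 1 value is not whole, and was rounded. Titles gave the group and replicate number of each library. No label says that replicates were separate animals or cultures, so p-values reflect the spread among these libraries, possibly only technical. Depth ran from 16352844 to 21708973 counts, and intervals cover counting error only.

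CPM were computed from library totals. The test was edgeR 4.0.16 in R 4.3.3 (filterByExpr, TMM, quasi-likelihood F-test, Benjamini-Hochberg over all genes tested, threshold 0.05), with the SE derived from the log2 change and its F statistic. It was run on simulated data in which few genes changed, evenly up and down. That run cannot speak for these data, where 56.9% of genes were called. DESeq2 1.42.0, limma-voom (limma 3.58.1), other scalings and filters, a replicate block and leaving out each library were the alternatives. The members, the lists and the separate treatment of Ad-GFP replicate 1 were chosen with earlier results of these data known. Named were all members, and per list the 4 genes with the largest change among those called, at a mean of at least 5 CPM and without overlap. For the member with the smallest p, the 3 genes with the highest Pearson's r were also named. Promoter sequences are RefSeq's, build GRCr8.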

Additional observations from a re-analysis of the deposited data

How the results depend on the processing

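Against Ad-GFP replicates 2 and 3, 9 members kept their direction under every alternative run, and Tgfb1, Tgfb2, Tgfb3, Inhba, Bmp4, Tgfbr2 and Fst also stayed called. Grem1 turned to -1.59 with limma-voom and to -3.64 without Ad-RNF128 replicate 3 (-3.64 to 1.42 over leaving out each library). Leaving out 1 library gave 2 to 3 members higher and 5 to 6 lower, and 11 to 13 other pathway genes higher and 22 to 27 lower. Where 1 control was left, its spread was taken to be that of the other group. Library totals alone gave 2409 genes lower in place of 3689.

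With all 6 libraries, leaving out Ad-GFP replicate 1 gave 3 members higher and 6 lower and 3812 and 3689 genes in all, where leaving out any other library gave 0. Over all genes DESeq2 called 244 higher and 142 lower, limma-voom 14 higher, and library totals alone 8 higher. Without Ad-GFP replicate 1 the log2 changes of Tgfb1 and Tgfbr1 turned to 0.48 and -0.21. Without Ad-GFP replicate 2 those of Tgfb2 and Fst turned to 0.14 and 0.06, and without Ad-GFP replicate 3 those of Tgfb2, Fst and Grem1 to 0.18, 0.09 and -0.01. Without Ad-RNF128 replicate 3 Grem1 was at -4.22. Over leaving out each library the ranges were -2.26 to 0.48 (Tgfb1), -0.79 to 0.18 (Tgfb2), -0.21 to 0.83 (Tgfbr1), -4.22 to 0.83 (Grem1) and -0.68 to 0.09 (Fst). Library totals alone turned Bmp4 to 0.10, limma-voom turned Tgfb2 to 0.58 and Grem1 to -2.04, and median-of-ratios factors and DESeq2 turned Grem1 to -0.07 and -0.09. The cause was not tested.

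The replicate block turned Tgfb2, Fst and Grem1 to 0.49, 0.09 and -2.56 with all 6 libraries, with 0 genes called. Against replicates 2 and 3 it gave 3 members higher and 6 lower, and 14 and 29 other pathway genes. Deviations of same-numbered libraries from their group means correlated at -0.167, 0.00993 and -0.121. Ad-GFP replicate 1, which stood apart, weighs on the Ad-GFP mean and so on every Ad-GFP deviation. These values therefore cannot tell whether the numbers pair the libraries.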
